A study of Homo sapiens with 96 samples.

Results

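Amino acids cross the plasma membrane through solute carriers, and the mRNA levels of 10 of these carriers were followed here in A375 cells, an established human melanoma line that carries an activating BRAF mutation. The carriers were chosen by gene symbol, with earlier results of these data known. They are SLC7A5, SLC3A2, SLC7A11, SLC1A5, SLC1A4, SLC38A1, SLC38A2, SLC7A1, SLC7A2 and SLC1A3. The table of raw counts held all 10 of them among its 44659 gene entries, and all 10 passed the filter on low counts, which kept 14948 genes for testing.

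The carriers work as a network. SLC7A5 (LAT1) is a light chain that exchanges large neutral amino acids such as leucine across the membrane, often against glutamine, and SLC3A2 (4F2hc, CD98) is the heavy chain that brings it to the cell surface. SLC7A11 (xCT) uses the same heavy chain and imports cystine, the source of cysteine for glutathione, in exchange for glutamate. SLC1A5 (ASCT2) and SLC1A4 (ASCT1) exchange small neutral amino acids, glutamine included for the former, while SLC38A1 (SNAT1) and SLC38A2 (SNAT2) take up neutral amino acids together with sodium. SLC7A1 (CAT1) and SLC7A2 (CAT2) carry arginine and lysine, and SLC1A3 (EAAT1) takes up glutamate and aspartate. Several of these genes are textbook targets of ATF4, the transcription factor of the amino acid response, and SLC7A11 is also one of NRF2, the factor of the oxidative stress response. BRAF and MEK belong to the MAPK pathway, which drives growth in this kind of melanoma.

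The series comprised 96 QuantSeq libraries in 32 groups of 3 replicates. Cells in medium with added glutamine received DMSO, or 500 nM vemurafenib (a BRAF inhibitor) with 500 nM cobimetinib (a MEK inhibitor), for 18 h. The pair of drugs is called MAPKi. In a further step, translation was blocked with cycloheximide (CHX) at 100 µg/ml, transcription with triptolide (T) at 25 µM, both with the pair of inhibitors (TCHX, cycloheximide added before triptolide), or neither with vehicle, and cells were harvested after 0, 1, 3 or 5 h. RNA was taken from the cytoplasmic fraction. QuantSeq reads 1 fragment near the 3′ end of a transcript, so a level does not grow with transcript length. Other differences between genes in read capture were not corrected, so an order of members by level is approximate. All groups are 1 cell line, nothing states that the 3 replicates came from separate cultures, and p-values therefore measure the spread between these libraries, which may be technical. Per the labels, cells were prepared as 4 identical batches that were harvested at different times, so that time and batch cannot be told apart.

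Total counts ran from 2381351 to 12520154 per library with a median of 7143396. The 11 tested genes of a list of 12 MAPK output genes all fell with MAPKi at 0 h, against 24.0% of all tested genes. SPRY4 went from 133 ± 15.6 to 0.316 ± 0.281 CPM (SD, n = 3). These falls check the drug labels. CPM is the count relative to the library total, scaled here by TMM, which sets the change of most genes between libraries near 0. Melanocyte lineage markers were abundant, with SOX10 at a median of 235 CPM in DMSO and 346 CPM in MAPKi libraries, although MLANA and TYR were near 0. The summed level of 9 lineage markers was higher with MAPKi (2617 to 4524 CPM) than with DMSO (1324 to 1697 CPM). This came through DCT, a melanin synthesis enzyme with medians of 47.3 CPM in DMSO and 1980 CPM in MAPKi libraries. NES (588 and 320 CPM) and S100B (317 and 229 CPM) had lower medians with MAPKi, and the other markers had higher ones. The part of these marker shifts in the results below was not tested. Of the markers of other cell types, KRT5, KRT1, CDH5 and CD3E had no count in any library. The 5 keratinocyte markers summed to 97.0 to 206 CPM, nearly all from KRT10, and the 4 fibroblast and 3 endothelial markers to at most 10.8 and 3.16 CPM. The 5 leukocyte markers summed to 1.78 to 7.79 CPM in DMSO and 9.71 to 32.3 CPM in MAPKi libraries, mostly CD68.

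In vehicle-treated control cells, the order of the members was led by SLC1A4, and MAPKi changed this order. In vehicle at 0 h after DMSO, the mean levels were 298 ± 36.2 CPM for SLC1A4, 181 ± 14.4 for SLC38A2, 178 ± 8.19 for SLC1A5, 164 ± 8.77 for SLC7A5 and 159 ± 7.33 for SLC3A2 (SD, n = 3). SLC7A1 (90.8 ± 1.81 CPM), SLC7A11 (87.2 ± 8.81) and SLC38A1 (70.3 ± 6.85) formed a middle range, and SLC7A2 (16.1 ± 6.23) and SLC1A3 (3.75 ± 0.414) were low. Neighbours in this order from SLC38A2 to SLC3A2, and SLC7A1 and SLC7A11, overlapped in their 3 libraries. After MAPKi, SLC7A5 stood first at 288 ± 35.1 CPM and SLC3A2 second at 218 ± 6.25, followed by SLC1A4 at 196 ± 12.4 and SLC38A2 at 157 ± 7.04. SLC7A11 (44.3 ± 4.25) and SLC1A5 (43.1 ± 9.14) overlapped, and SLC7A1 (29.2 ± 2.94), SLC38A1 (13.3 ± 2.75), SLC7A2 (3.45 ± 1.54) and SLC1A3 (1.09 ± 0.806) lay below them.

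**Figure D1:**
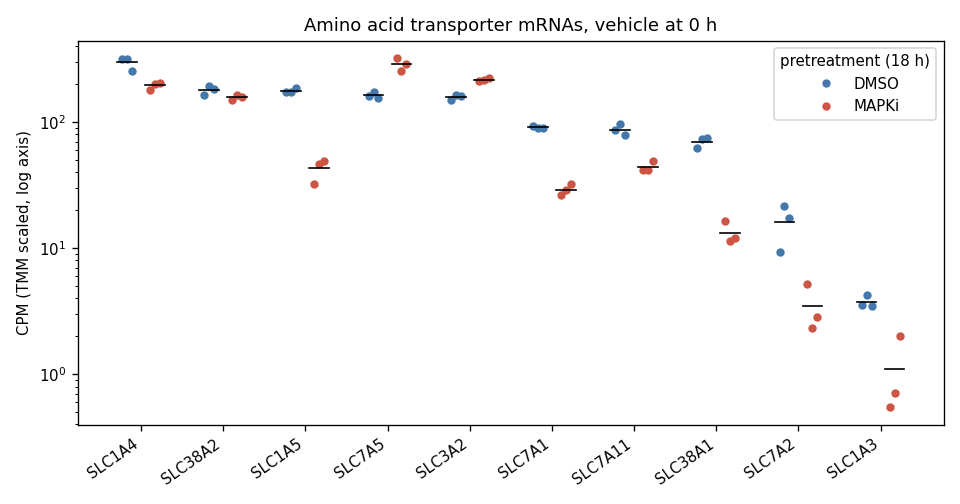
Levels of the 10 transporter mRNAs in vehicle at 0 h, as TMM-scaled CPM on a log axis, after 18 h of DMSO (blue) or MAPKi (red); each point is 1 library and each black line the mean of 3. SLC7A5 and SLC3A2 sit higher with MAPKi, and SLC1A5, SLC38A1, SLC7A1 and SLC7A2 sit far lower.

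The question of the first comparison was how 18 h of MAPKi changed each transporter before any inhibitor was added. At 0 h in vehicle, 2 of the 10 members rose and 7 fell (edgeR quasi-likelihood test, Benjamini-Hochberg adjusted p under 0.05), against 21.9% of all tested genes that rose and 24.0% that fell. The median log2 change was −1.305 over the members and 0.03 over all tested genes. The libraries of MAPKi and DMSO did not overlap at 0 h for any of the 10 members, which was so for 53.1% of all tested genes. In bulk libraries, less RNA per cell and fewer expressing cells cannot be told apart.

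Both subunits of the LAT1 exchanger rose. SLC7A5 had 163, 174 and 156 CPM in the DMSO libraries and 323, 253 and 288 CPM with MAPKi, so that every MAPKi library was above every DMSO library. The log2 change was 0.81 ± 0.13 (SE), or 1.75-fold (edgeR adjusted p = 6.98e-08). SLC3A2, the heavy chain, had 150.3, 164 and 162 CPM with DMSO and 213, 215 and 225 CPM with MAPKi. Its rise was smaller, at 0.46 ± 0.10 log2, or 1.37-fold (edgeR adjusted p = 4.61e-05).

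The promoters of these subunits are shown because both genes moved the same way under MAPKi and, in DMSO cells, under cycloheximide. Each RefSeq window (GRCh38.p14) runs from 250 bases before to 50 bases after a transcript start, 5′ to 3′ on the strand of the gene. Capitals mark matches on either strand to TGATGNAA, the core of the C/EBP-ATF response element, TGACNNNGC, the core of the antioxidant response element, or CACGTG, an E-box. SLC7A5 lies on chromosome 16 (87830023 to 87869507, minus strand) and its window is chr16:87869458-87869757. SLC3A2 lies on chromosome 11 (62856004 to 62888880, plus strand), and the one of its 3 windows that holds matches is chr11:62881449-62881748.
SLC7A5: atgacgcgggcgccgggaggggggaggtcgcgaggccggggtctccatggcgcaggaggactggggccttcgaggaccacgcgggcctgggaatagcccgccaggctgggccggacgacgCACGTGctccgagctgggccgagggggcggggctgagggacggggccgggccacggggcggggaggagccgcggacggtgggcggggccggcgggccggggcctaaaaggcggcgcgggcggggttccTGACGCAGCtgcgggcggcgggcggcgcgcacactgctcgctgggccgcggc
SLC3A2: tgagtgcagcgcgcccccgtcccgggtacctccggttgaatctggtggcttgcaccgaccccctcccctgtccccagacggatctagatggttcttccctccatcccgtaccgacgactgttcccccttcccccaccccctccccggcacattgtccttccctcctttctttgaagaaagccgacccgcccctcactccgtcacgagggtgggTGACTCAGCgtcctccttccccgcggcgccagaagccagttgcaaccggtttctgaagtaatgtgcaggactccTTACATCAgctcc
The SLC7A5 window held an E-box and an antioxidant element core, and the SLC3A2 window held an antioxidant element core and, on the other strand and after the start, a C/EBP-ATF core. Over the 8 members with a window, the C/EBP-ATF core was found in 6 of 16 windows, the antioxidant core in 5 and the E-box in 2. Over all 35116 RefSeq windows, 3.62%, 13.3% and 7.26% held the respective motif. The windows of the members include several starts of the same gene. The C/EBP-ATF core of SLC1A5 lay in chr19:46784765-46785064, while the window at the start of that gene (chr19:46788545-46788844) held no match. The SLC38A2 window held none either. Whether the members hold more matches than other genes was not tested. A match of letters is a description and not a measured binding site.

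SLC7A11, which shares the heavy chain SLC3A2, moved the other way. Its levels were 86.5, 96.4 and 78.8 CPM with DMSO and 42.0, 41.7 and 49.2 CPM with MAPKi, with no overlap. It fell by 0.98 ± 0.16 on the log2 scale, or 1.97-fold (edgeR adjusted p = 3.98e-07). SLC7A11 lies on chromosome 4 (138164097 to 138242349, minus strand), and its last exon overlaps the antisense gene SLC7A11-AS1.

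The exchangers and sodium-coupled carriers of neutral amino acids fell to very different degrees. SLC38A1 had 62.4, 73.7 and 74.8 CPM with DMSO and 16.5, 11.4 and 11.99 CPM with MAPKi. This was a 5.27-fold fall and the largest of the 10 (log2 −2.40 ± 0.19, edgeR adjusted p = 5.52e-19). SLC1A5 went from 173, 174 and 188 CPM to 32.6, 47.0 and 49.6 CPM, a 4.15-fold fall (log2 −2.05 ± 0.14, edgeR adjusted p = 1.37e-22). SLC1A5 lies on chromosome 19 (46774883 to 46788594, minus strand). The strand setting of the counting is not given in the sources used here, so reads where genes overlap on opposite strands cannot be assigned with certainty. SLC1A4, the relative of SLC1A5, fell only 1.52-fold, from 319, 319 and 256 CPM to 182, 200.3 and 205 CPM (log2 −0.61 ± 0.11, edgeR adjusted p = 6.73e-06). SLC38A2, the relative of SLC38A1, had 165, 194 and 184 CPM with DMSO and 150.1, 164 and 158 CPM with MAPKi. Although these libraries just failed to overlap, the difference of −0.21 ± 0.12 log2 did not pass the test (edgeR adjusted p = 0.143), with a 95% interval from −0.43 to 0.02. SLC38A1 (46183063 to 46270017) and SLC38A2 (46358188 to 46372773) are neighbours on the minus strand of chromosome 12, and SLC1A4 lies on chromosome 2 (64988477 to 65023865, plus strand), with its last exon overlapped by LINC02245 on the opposite strand.

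The 2 carriers of arginine and lysine both fell. SLC7A1 had 92.9, 89.8 and 89.7 CPM with DMSO and 26.3, 29.2 and 32.2 CPM with MAPKi, a 3.10-fold fall (log2 −1.63 ± 0.12, edgeR adjusted p = 8.8e-20). SLC7A2 was far lower, with 9.33, 21.6 and 17.4 CPM (45, 138 and 164 counts) against 5.21, 2.33 and 2.83 CPM (38, 13 and 21 counts), a 4.62-fold fall (log2 −2.21 ± 0.29, edgeR adjusted p = 9.18e-10). The glutamate carrier SLC1A3 rested on few reads, at 17, 27 and 33 counts with DMSO and 4, 4 and 15 with MAPKi. It fell by 1.73 ± 0.63 on the log2 scale (edgeR adjusted p = 0.0191), which was not called without replicate 1 (adjusted p = 0.132) or without replicate 2 (adjusted p = 0.143). SLC7A1 lies on chromosome 13 (29509414 to 29595688, minus strand). Its promoter window, chr13:29595639-29595938, is shown because it holds both a C/EBP-ATF core and an antioxidant element core, as the SLC3A2 window does. The part of these matches in the mRNA changes was not tested.
SLC7A1: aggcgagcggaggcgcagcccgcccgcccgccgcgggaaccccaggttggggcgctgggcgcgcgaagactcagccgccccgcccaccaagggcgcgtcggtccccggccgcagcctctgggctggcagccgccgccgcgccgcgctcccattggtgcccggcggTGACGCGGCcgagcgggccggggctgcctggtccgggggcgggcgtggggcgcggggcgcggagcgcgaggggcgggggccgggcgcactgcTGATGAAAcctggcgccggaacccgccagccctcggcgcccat

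**Figure D2:**
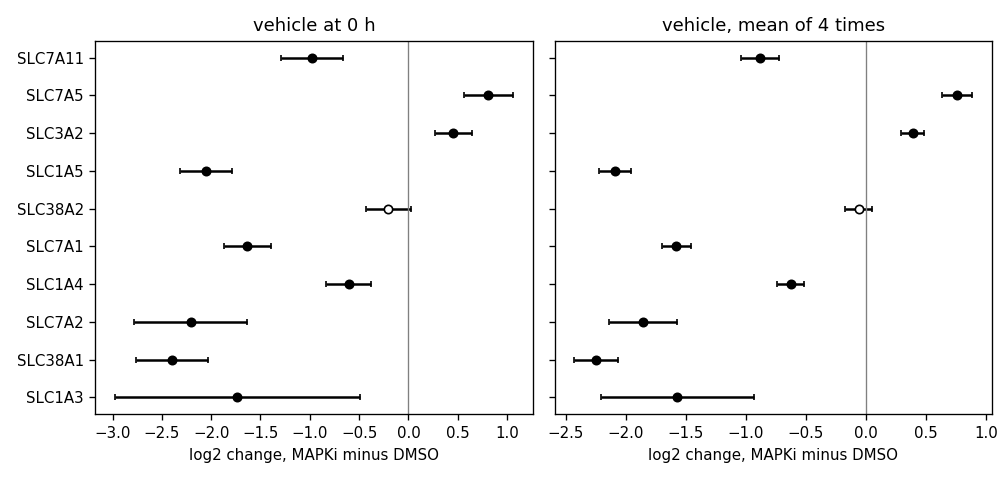
Log2 change of each member, MAPKi minus DMSO, in vehicle at 0 h (left) and over the 4 harvest times (right). Bars are approximate 95% intervals from a normal quantile and an SE derived from the edgeR F statistic. Filled points passed the adjusted p threshold. SLC7A5 and SLC3A2 lie right of 0, SLC38A2 spans 0 in both panels, and the other 7 lie left.

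The MAPKi difference was also tested over the 4 harvest times of the vehicle arm together. In that mean, the same 2 members rose and the same 7 fell, with 35.8% of all tested genes rising and 33.1% falling. The 12 MAPKi and 12 DMSO vehicle libraries did not overlap for 8 members, against 23.4% of all tested genes. SLC7A5 ran from 143 to 213 CPM (median 174) with DMSO and from 252 to 342 CPM (median 288) with MAPKi, and SLC3A2 from 150.3 to 206 (median 179) and from 213 to 255 (median 236). SLC38A1 ran from 60.5 to 83.5 CPM (median 73.8) with DMSO and from 11.4 to 22.3 CPM (median 15.5) with MAPKi. SLC38A2 overlapped, at 165 to 216 CPM (median 191) and 150.1 to 225 CPM (median 185), and its mean log2 difference was −0.06 ± 0.06 (edgeR adjusted p = 0.374, 95% interval −0.17 to 0.05). At 3 h the SLC38A2 means were 209.95 ± 10.4 CPM with DMSO and 218 ± 6.67 CPM with MAPKi, the reverse of the order at 0 h. SLC1A3 overlapped too.

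The vehicle arm was compared with itself at its first and last time. Between 0 and 5 h, no member was called in DMSO or MAPKi cells by edgeR or by DESeq2, while edgeR called 1.06% and 3.34% of all tested genes. At an unadjusted p under 0.05, 2 members stood out in each, beside 1805 and 2221 of the 14948 tested genes. They were SLC3A2 and SLC7A5 in DMSO cells and SLC7A1 and SLC38A1 in MAPKi cells, all higher at 5 h. The times in between were not tested, and in MAPKi vehicle SLC38A2 had 150.1, 164 and 158 CPM at 0 h and 217, 212 and 225 CPM at 3 h, while SLC7A1 had 26.3, 29.2 and 32.2 CPM and 37.6, 51.2 and 40.8 CPM. Neither gene overlapped between these times. The share of all tested genes that did so was not computed, so this separation is no test of a drift. At 0 h no member and no gene (0.0%) differed between vehicle and the T, CHX or TCHX arm by edgeR; unadjusted, 869, 441 and 659 genes and 1, 0 and 0 members did, and DESeq2 called 1, 1 and 0 genes.

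No member passed the test after 1 h of cycloheximide, and most did in DMSO cells over 3 and 5 h. At 1 h, edgeR and DESeq2 called 0 of 10 members in either pretreatment, edgeR called 0.0736% of all tested genes in each, and 0 (DMSO) and 1 (MAPKi) members had an unadjusted p under 0.05, beside 704 and 1427 of all 14948 genes. Over 3 and 5 h in DMSO cells, 3 members were above vehicle and 5 below it, against 18.3% and 13.4% of all tested genes. In MAPKi cells 1 member was above vehicle and 3 below it, against 15.9% and 13.9%. The change differed between the pretreatments by an interaction test for 2 members, SLC3A2 and SLC7A5, and for 11.2% of all tested genes.

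Among the called members, the heavy chain SLC3A2 rose most. In DMSO cells at 5 h it had 182, 177 and 206 CPM in vehicle and 412, 432 and 471 CPM with cycloheximide, the highest group mean of SLC3A2 in the series. With MAPKi the 5 h values were 255, 224 and 241 CPM in vehicle and 326, 351 and 351 CPM with cycloheximide. The groups were apart in both pretreatments, and the start was higher but the rise smaller with MAPKi. Over 3 and 5 h the rise was 2.06-fold in DMSO cells (log2 1.04 ± 0.07, edgeR adjusted p = 8.22e-23) and 1.32-fold in MAPKi cells (log2 0.40 ± 0.07, edgeR adjusted p = 1.44e-06). The difference between these rises was −0.65 ± 0.09 log2 (edgeR adjusted p = 2.29e-07).

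Its partner SLC7A5 rose with cycloheximide in DMSO cells. At 5 h the levels were 213, 202 and 174 CPM in vehicle and 336, 338 and 285 CPM with cycloheximide, whereas in MAPKi cells they were 327, 262 and 252 CPM and 319, 239 and 307 CPM, which overlap. The levels with cycloheximide in DMSO cells overlapped those of the MAPKi vehicle libraries. The log2 change over 3 and 5 h was 0.43 ± 0.09 in DMSO cells (edgeR adjusted p = 4.54e-05) and −0.06 ± 0.09 in MAPKi cells (edgeR adjusted p = 0.658), and the interaction was −0.50 ± 0.12 (edgeR adjusted p = 0.00291). Without replicate 2 the interaction of SLC7A5 was −0.40 with an edgeR adjusted p of 0.0817.

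SLC7A11 and SLC7A1 were lower with cycloheximide than with vehicle after both pretreatments. SLC7A11 at 5 h went from 77.0, 78.5 and 80.8 CPM in vehicle to 42.3, 38.8 and 37.5 CPM in DMSO cells. In MAPKi cells it went from 36.6, 46.9 and 48.1 CPM to 17.1, 21.9 and 20.2 CPM, the lowest group mean of SLC7A11 in the series. Over 3 and 5 h this was a 1.74-fold fall in DMSO (log2 −0.80 ± 0.11, edgeR adjusted p = 1.98e-08) and a 2.04-fold fall in MAPKi cells (log2 −1.03 ± 0.12, edgeR adjusted p = 2.88e-11). SLC7A1 differed from vehicle by −0.59 ± 0.08 and −0.60 ± 0.09 on the log2 scale in DMSO and MAPKi cells (edgeR adjusted p = 1.09e-08 and 4.44e-08). At 5 h its levels went from 111, 99.7 and 108 to 63.9, 66.0 and 65.8 CPM in DMSO cells, and were 38.1, 40.0 and 34.9 in vehicle against 27.8, 24.4 and 20.9 CPM in MAPKi cells. In MAPKi cells the SLC7A1 level with cycloheximide stayed near its start, with means of 26.5 ± 2.49, 28.2 ± 3.06, 28.9 ± 1.74 and 24.4 ± 3.46 CPM after 0, 1, 3 and 5 h (SD, n = 3). The vehicle means were 29.2 ± 2.94, 27.3 ± 1.66, 43.2 ± 7.12 and 37.6 ± 2.58 CPM at the same times, so the difference there lay in a higher vehicle level at 3 and 5 h. For neither gene was the interaction called (edgeR adjusted p = 0.422 and 0.995), with 95% intervals of −0.55 to 0.09 for SLC7A11 and −0.24 to 0.22 for SLC7A1.

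**Figure D3:**
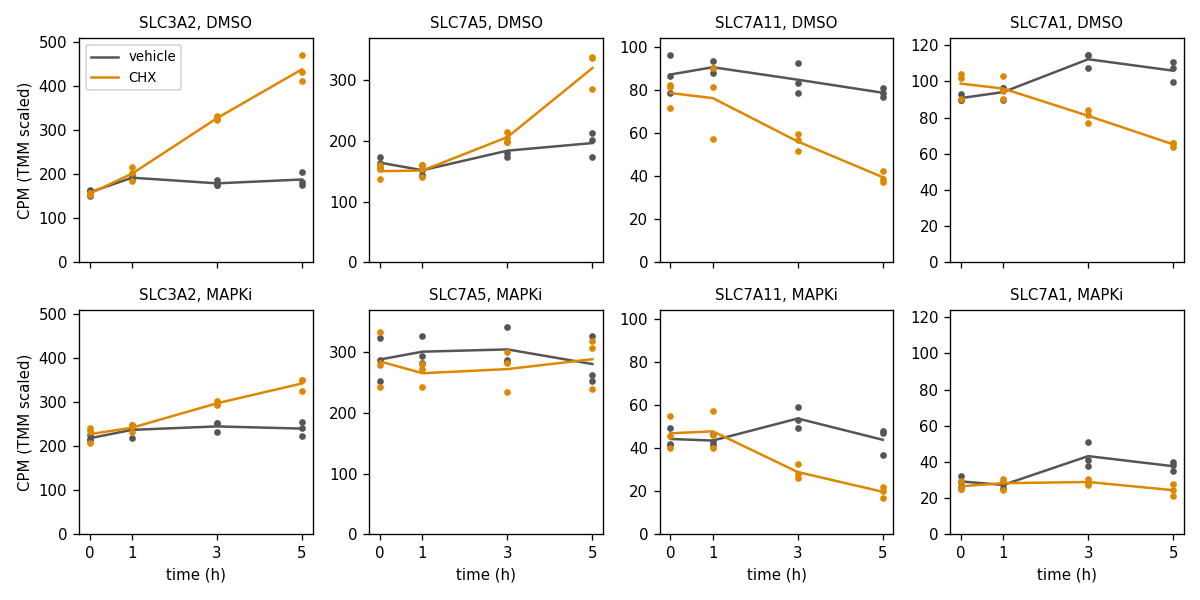
CPM of SLC3A2, SLC7A5, SLC7A11 and SLC7A1 (linear axis from 0) over 0, 1, 3 and 5 h of vehicle (grey) or cycloheximide (orange) in DMSO (top) and MAPKi (bottom) cells; points are libraries and lines join means of 3. SLC3A2 climbs with cycloheximide in both rows, SLC7A5 climbs above vehicle in the DMSO row, and SLC7A11 declines in both. SLC7A1 declines in the DMSO row, and in the MAPKi row its cycloheximide line stays near its start while vehicle lies higher at 3 and 5 h.

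Among the remaining members, SLC1A4 rose 1.40-fold with cycloheximide in DMSO cells (log2 0.48 ± 0.08, edgeR adjusted p = 8.2e-07), from 344, 358 and 323 CPM to 576, 560 and 435 CPM at 5 h. In MAPKi cells its change of 0.20 ± 0.08 just missed the threshold (edgeR adjusted p = 0.0511). SLC38A1 was below vehicle by 0.36 ± 0.12 and 0.45 ± 0.13 on the log2 scale in DMSO and MAPKi cells (edgeR adjusted p = 0.0141 and 0.00613). These SLC38A1 calls were lost without replicate 3 (adjusted p = 0.108 and 0.193), and that in MAPKi cells also without replicate 1 (adjusted p = 0.0987). In MAPKi vehicle SLC38A1 changed by 0.51 ± 0.19 log2 from 0 to 5 h (edgeR adjusted p = 0.144). How much of the MAPKi difference lay in that vehicle level was not tested. SLC38A2 fell by 0.34 ± 0.08 and SLC7A2 by 0.73 ± 0.19 in DMSO cells (edgeR adjusted p = 0.000545 and 0.00157), with −0.02 ± 0.08 and −0.08 ± 0.21 in MAPKi cells (edgeR adjusted p = 0.896 and 0.824). The interaction of SLC38A2, 0.32 ± 0.12, had an edgeR adjusted p of 0.0554 and passed the threshold with DESeq2 (0.0335), DESeq2 size factors (0.0288), no filter (0.048) and 5 h alone (0.024). SLC1A5 (edgeR adjusted p = 0.0654 and 0.124) and SLC1A3 (0.329 and 0.157) were not called in either pretreatment.

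When transcription was blocked, SLC38A2 mRNA was lost far faster than that of the other members. Levels in the triptolide arms were scaled to 36 genes that met the stability rule of the study at both 3 and 5 h (the rule is worded for 3 or 5 h, which 526 genes met), and the percent left is the level at a time divided by the vehicle level at 0 h of the same replicate number and pretreatment. At 5 h of triptolide, 15.1%, 12.9% and 11.6% of SLC38A2 was left in DMSO cells and 9.01%, 9.85% and 14.9% in MAPKi cells. The median gene was at 67.5 ± 1.44% and 60.9 ± 2.21% (SD, n = 3, over 10673 genes with at least 10 scaled counts at the start). At 3 h the means for SLC38A2 were 37.1 ± 4.35% and 33.1 ± 5.97%. The other 9 members had means of 46.5% to 92.8% left at 5 h in DMSO cells and 51.3% to 103% in MAPKi cells, where the 2 low members SLC1A3 and SLC7A2 were the least precise (up to ± 70.7% and ± 39.1%).

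By the test over 3 and 5 h, 7 members fell in DMSO cells and 8 in MAPKi cells and none rose. Of all tested genes, 48.7% and 56.1% fell and 1.3% and 1.28% rose, so the members' count is read against a general decline, with a median log2 change over all genes of −0.47 and −0.59. SLC38A2 changed by −2.18 ± 0.11 and −2.39 ± 0.11 (edgeR adjusted p = 6.39e-30 and 3.41e-32), a 4.52-fold and a 5.23-fold fall. The other called members fell by 0.34 to 0.58 in DMSO cells and by 0.27 to 0.77 in MAPKi cells on the log2 scale. SLC1A5 was called in MAPKi cells (−0.45 ± 0.12, edgeR adjusted p = 0.000648) and had −0.11 ± 0.11 in DMSO cells (adjusted p = 0.405). The interaction with MAPKi was called for no member by edgeR or DESeq2 and for 3.17% of all tested genes, and SLC1A5 was the one member with an unadjusted p under 0.05 (−0.34 ± 0.16, edgeR adjusted p = 0.323), beside 1948 of the 14948 genes. With TMM scaling SLC38A2 was the one member still called lower in both pretreatments (−1.71 and −1.75), and 6 of the called or newly called members in each pretreatment changed sign. The calls of SLC7A11 and SLC38A1 were also lost without 1 or more of the replicates in each pretreatment, and that of SLC1A4 in MAPKi cells without replicate 1 (edgeR adjusted p = 0.128) or 2 (0.173).

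With stable-gene scaling, adding cycloheximide to triptolide raised the level of SLC38A2 and SLC3A2 in both pretreatments. The scaling genes were picked on these T libraries and not on TCHX, which can itself set TCHX above T. Over 3 and 5 h, TCHX was above T for 4 members in DMSO cells and 3 in MAPKi cells and below T for none, against 28.4% and 41.4% of all tested genes above and 0.468% and 0.535% below. The median log2 difference was 0.11 and 0.17 over the members and 0.23 and 0.34 over all tested genes. SLC38A2 at 5 h had 195, 182 and 151 scaled counts with T and 416, 340.1 and 251 with TCHX in DMSO cells, and 100.4, 119.5 and 169.7 against 259.8, 381 and 406 in MAPKi cells. Each TCHX library was above each T library. The log2 differences were 0.78 ± 0.10 and 1.11 ± 0.10 (edgeR adjusted p = 1.22e-10 and 8.95e-17). SLC3A2 differed by 0.53 ± 0.07 and 0.49 ± 0.07 (edgeR adjusted p = 2.87e-10 and 1.46e-09), and SLC7A1 by 0.26 ± 0.08 and 0.52 ± 0.09 (edgeR adjusted p = 0.0121 and 1.25e-06). SLC1A4 was called in DMSO cells (0.32 ± 0.09, edgeR adjusted p = 0.00343) and not in MAPKi cells (0.20 ± 0.09, adjusted p = 0.072). The DMSO call of SLC7A1 was lost without replicate 3 (edgeR adjusted p = 0.196) and that of SLC1A4 without replicate 1 (0.0845). With TMM scaling SLC38A2 was still called in both pretreatments, whereas SLC3A2 was called in DMSO cells only (0.099 log2 in MAPKi cells, adjusted p = 0.275). No member's difference changed with MAPKi by edgeR or DESeq2 (interaction called for 7.11% of all tested genes), and 3 members had an unadjusted p under 0.05 beside 2774 of the 14948 genes.

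**Figure D4:**
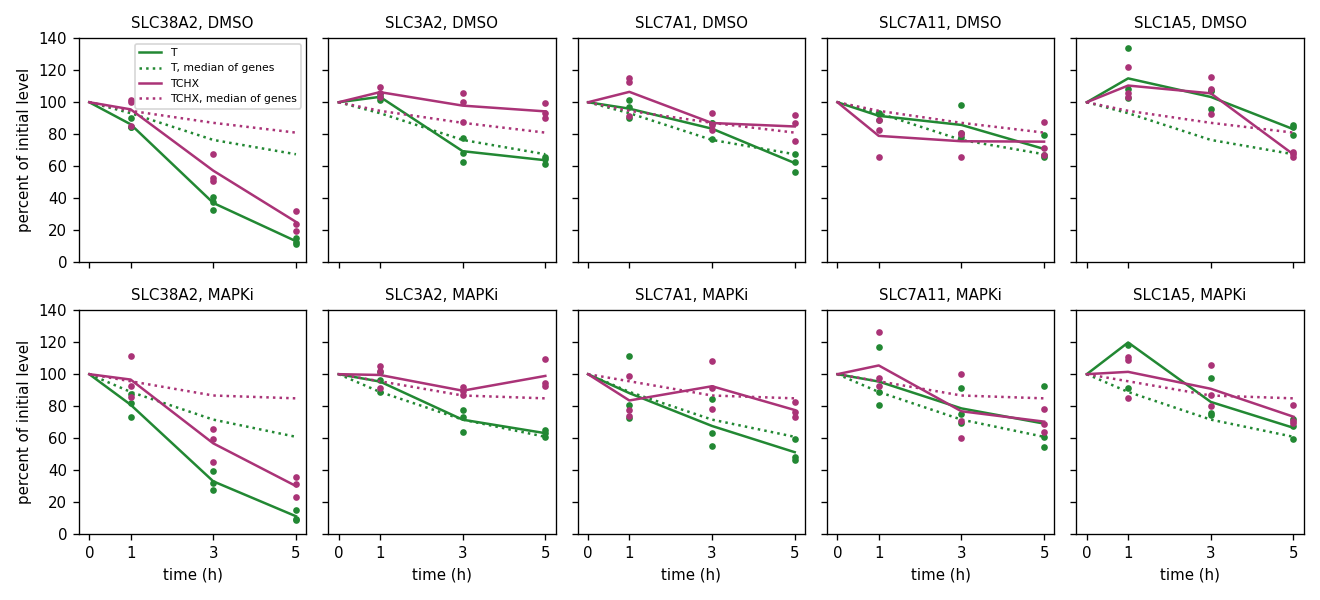
Percent of the initial level left after 1, 3 and 5 h of triptolide without (T, green) or with cycloheximide (TCHX, purple) in DMSO (top) and MAPKi (bottom) cells, scaled to the stable genes; points are replicates, solid lines their means and dotted lines the median over 10673 genes. SLC38A2 runs far below the dotted lines at 3 and 5 h in both arms, while SLC3A2 with TCHX runs above its dotted line at 5 h. Replicate 1 of SLC1A5 at 1 h of T in MAPKi cells, at 149.7%, lies above the top of the axis and is not visible.

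With both inhibitors, SLC38A2 still declined the most. At 5 h of TCHX its means were 25.3 ± 6.54% and 30.1 ± 6.26% of the initial level in DMSO and MAPKi cells, against a median gene at 81.0 ± 1.81% and 84.9 ± 2.32%. SLC3A2 was at 94.3 ± 4.79% and 98.9 ± 9.11%. Compared with the initial level over 3 and 5 h, 3 members were called in DMSO cells (23.6% of all tested genes) and 4 in MAPKi cells (19.5%), all of them lower. SLC38A2 changed by −1.40 ± 0.11 and −1.28 ± 0.11 log2 (edgeR adjusted p = 3.37e-18 and 4.86e-16). SLC7A11 fell by 0.39 ± 0.14 and 0.46 ± 0.15 (edgeR adjusted p = 0.0323 and 0.0188), but the call in DMSO cells was lost without replicate 1, 2 or 3 (edgeR adjusted p = 0.051, 0.0988 and 0.235) and that in MAPKi cells without replicate 1 or 3 (0.24 and 0.0957). The remaining calls were SLC38A1 in DMSO cells (−0.45 ± 0.14, edgeR adjusted p = 0.0146, and 0.225 without replicate 3) and SLC7A5 and SLC1A5 in MAPKi cells (−0.32 ± 0.12 each, edgeR adjusted p = 0.0449 and 0.0432), and both MAPKi calls were lost without any 1 replicate. The median log2 change was −0.33 and −0.28 over the members and −0.24 and −0.23 over all tested genes.

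The TDD index, defined as the TCHX level minus the T level over the initial level, is the measure of translation-dependent decay used in the study. For SLC3A2 at 5 h it was 0.305 ± 0.053 in DMSO and 0.358 ± 0.072 in MAPKi cells, against 0.140 ± 0.050 and 0.226 ± 0.028 for the median gene. SLC38A2, with little RNA left, had 0.121 ± 0.048 and 0.189 ± 0.040. SLC1A5 at 5 h was below 0 in all 3 DMSO replicates (−0.180, −0.157 and −0.137) and had 0.069 ± 0.082 in MAPKi cells. At 3 h its DMSO values were 0.015, 0.086 and −0.032. The 3 h means of SLC3A2 were 0.285 ± 0.125 and 0.181 ± 0.055 in DMSO and MAPKi cells. Those of SLC38A2 were 0.202 ± 0.067 and 0.237 ± 0.055, beside 0.110 and 0.152 for the median gene. The 5 h index moved with the scaling: under TMM it was 0.22 and 0.13 for SLC3A2 and −0.40 and −0.23 for SLC1A5.

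The next comparison asked whether the effect of cycloheximide was the same with transcription blocked. The difference between TCHX minus T and CHX minus vehicle, with TMM scaling, was called for 6 members in DMSO cells and 5 in MAPKi cells, against 15.9% and 11.7% of all tested genes. SLC7A11, which fell by 0.80 and 1.03 log2 with cycloheximide alone, differed by −0.04 ± 0.12 and −0.01 ± 0.12 between TCHX and T with the stable genes (edgeR adjusted p = 0.864 and 0.975). Its interaction was 0.52 ± 0.16 in DMSO and 0.63 ± 0.17 in MAPKi cells (edgeR adjusted p = 0.0139 and 0.00422). On the TMM scale of the interaction, SLC7A11 differed between TCHX and T by −0.27 in DMSO cells (edgeR adjusted p = 0.0658) and −0.39 in MAPKi cells (adjusted p = 0.00521). SLC7A1, lower with cycloheximide alone, had interactions of 0.61 ± 0.12 and 0.73 ± 0.13 (edgeR adjusted p = 3.97e-05 and 6.45e-06). Its TCHX minus T difference was above 0 with the stable genes and was not called under TMM (0.02 and 0.13, edgeR adjusted p = 0.903 and 0.29). SLC38A2 had 0.89 ± 0.12 and 0.75 ± 0.12 (edgeR adjusted p = 1.18e-08 and 1.32e-06). For SLC3A2 the rise was smaller under triptolide, by 0.74 ± 0.10 in DMSO cells (−0.74, edgeR adjusted p = 2.8e-09) and by 0.30 ± 0.09 in MAPKi cells (−0.30, edgeR adjusted p = 0.0245). The MAPKi value was not called with stable-gene scaling (adjusted p = 0.148) or without any 1 replicate. SLC7A5 had −0.52 ± 0.13 in DMSO cells (edgeR adjusted p = 0.00131), and SLC1A4 −0.40 ± 0.11 and −0.39 ± 0.11 (edgeR adjusted p = 0.00805 and 0.0138), which were not called with stable-gene scaling (adjusted p = 0.111 and 0.117). Leaving out 1 replicate ended the call of SLC7A11 in DMSO cells (without replicate 1 or 2, edgeR adjusted p = 0.138 and 0.0599) and in MAPKi cells (without replicate 3, 0.131). It also ended that of SLC7A5 in DMSO cells (without replicate 3, 0.0546) and those of SLC1A4 (without replicate 1 or 2 in DMSO, 0.0714 and 0.089, and without replicate 1 or 3 in MAPKi cells, 0.224 and 0.138).

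**Figure D5:**
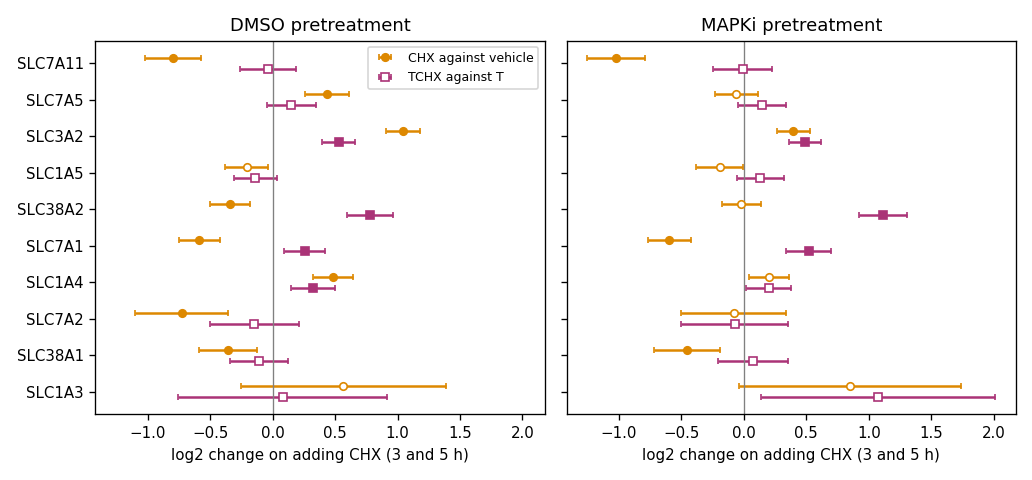
Log2 change on adding cycloheximide over 3 and 5 h, without triptolide (orange circles, CHX against vehicle, TMM scaling) and with it (purple squares, TCHX against T, stable-gene scaling), with 95% intervals; filled symbols passed the adjusted p threshold. SLC7A11 and SLC7A1 lie left of 0 without triptolide, and with it, under stable-gene scaling, SLC7A11 lies at 0 and SLC7A1 right of 0. Under TMM, which is not drawn, SLC7A11 was at −0.27 and −0.39 and SLC7A1 at 0.02 and 0.13.

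Across the 32 group means, the members fell into patterns that moved together. The correlations below are descriptions over groups that share libraries and the same 2 pretreatments. SLC38A1 and SLC7A1 had the highest Pearson r of any pair of members (0.984), followed by SLC38A1 and SLC1A5 (0.983), and SLC7A5 and SLC7A1 the lowest (−0.90). Among 9974 genes with a mean of at least 5 CPM, the most similar to SLC38A1 were FGFRL1 (0.993) and ETV5 (0.991), the latter a transcription factor of the MAPK output list, and FGFRL1 (0.991) and ACTN1 (0.989) were the most similar to SLC1A5. SLC7A1 was most like PPP3R1 (0.987) and RRP1B (0.985), SLC7A2 like RAD23B (0.982) and PTP4A2 (0.981), and SLC7A11 like KIF5B (0.971) and NETO2 (0.957). SLC3A2 had PMEPA1 (0.925) among its 2 most similar genes. SLC7A5 was most like TRIM58 (0.968) and ETS1 (0.963), and SLC38A2 like ETAA1 (0.961) and ASTE1 (0.956). SLC1A4 paired with METAP2 (0.965) and XRN2 (0.964), and SLC1A3, at few counts, with DNAJC2 (0.858) and RIOX2 (0.855).

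The wider set of amino acid transporters moved in both directions with MAPKi, as all tested genes did (21.9% rose and 24.0% fell at 0 h). Of 50 other transporters, 24 were tested, of which 7 rose, 5 fell and 12 were not called at 0 h, with a median log2 change of −0.09. Over all vehicle times 9 rose, 12 fell and 3 were not called, with a median of −0.19, and the difference from the members was not tested. Of all tested genes, 35.8% rose and 33.1% fell over these times. The largest called changes were those of SLC7A8 (LAT2, another partner of SLC3A2), from 0.508 ± 0.321 to 15.0 ± 5.63 CPM (log2 4.69 ± 0.52, at most 8 counts in a DMSO library), SLC43A3, a purine base carrier, from 363 ± 79.5 to 36.8 ± 3.17 CPM (log2 −3.30 ± 0.20), and SLC25A15, the mitochondrial ornithine carrier (log2 −1.50 ± 0.25). With edgeR, their adjusted p values were 1.98e-12, 5e-25 and 4.91e-07. SLC43A3 was on the list of other transporters although it is described as a purine base carrier. It counts among the 24 tested genes and among the 5 that fell at 0 h. With cycloheximide at 3 and 5 h, 2 of the 24 rose and 5 fell in DMSO cells, and 1 rose and 3 fell in MAPKi cells. The shares of all tested genes were 18.3% and 13.4% in DMSO cells and 15.9% and 13.9% in MAPKi cells.

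The stress-response lists moved in both directions with MAPKi, as all tested genes did (21.9% rose and 24.0% fell at 0 h). Of 26 ATF4 target genes, 23 were tested, and 5 rose and 10 fell at 0 h, with a median of −0.24. NUPR1, a stress-induced chromatin protein, rose from 0.680 ± 0.188 to 13.96 ± 5.32 CPM, ATF3 from 5.12 ± 1.80 to 56.9 ± 3.99 CPM, and STC2, a secreted glycoprotein, fell from 9.63 ± 0.857 to 0.847 ± 0.697 CPM (edgeR adjusted p = 4.18e-12, 2.46e-22 and 2.29e-08). Of 14 NRF2 target genes, 12 were tested, and 4 rose and 6 fell, with a median of −0.59. HMOX1, which degrades heme, rose by 1.83 ± 0.25 and PIR by 1.28 ± 0.13, and OSGIN1 fell by 1.62 ± 0.29 on the log2 scale (edgeR adjusted p = 2.61e-09, 1.29e-13 and 1.85e-06). With cycloheximide at 3 and 5 h, 8 of the 12 NRF2 targets fell in DMSO cells and 10 in MAPKi cells and none rose, with medians of −0.33 and −0.50 beside 0.01 and −0.01 for all genes. Of the ATF4 targets, 7 rose and 6 fell in DMSO cells and 7 rose and 3 fell in MAPKi cells. With cycloheximide, 18.3% of all tested genes rose and 13.4% fell in DMSO cells, and 15.9% and 13.9% in MAPKi cells.

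Of 10 enzymes of glutamine and glutamate metabolism, 7 were tested, and 2 rose and 4 fell with MAPKi at 0 h (median −0.39). Of all tested genes, 21.9% rose and 24.0% fell. GPT2 fell by 0.80 ± 0.18 and GOT1, an aspartate aminotransferase, rose by 0.79 ± 0.16 on the log2 scale (edgeR adjusted p = 0.000119 and 1.92e-05).

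Codon shares of the members were counted from the MANE transcripts of GENCODE, and 9 of the 10 lay below the median of tested genes for aspartate and glutamate codons. Codons for aspartate and glutamate made up 5.79% of SLC7A11, 6.11% of SLC7A5 and 6.13% of SLC38A2, against a median of 11.9% over 11891 tested coding genes. SLC3A2, a protein with a large domain outside the cell, was the one member above that median, at 12.3%. The share of codons that end in A or T ran from 9.67% in SLC7A5 and 20.9% in SLC1A5 to 52.3% in SLC7A11, 52.8% in SLC38A1 and 58.3% in SLC38A2, with a median of 42.1% over all. The partners SLC7A5 and SLC3A2 (28.9%) were both below that median.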

How the data were processed

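QuantSeq 3′ libraries were made from cytoplasmic RNA of A375 cells. The authors deposited raw counts of reads per gene, made per the submitters' processing notes with fastp 0.20.1, HISAT2 2.2.1 (GRCh38.p13) and HTSeq 0.13.5. Strand settings and molecular identifiers are not given in the sources used here, so repeated reads count separately. ERCC spikes were added in the study and were not used here.

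Counts of 14948 genes (filterByExpr) were fitted with edgeR 4.0.16 (quasi-likelihood, 96 libraries, 1 mean per group, two-sided, Benjamini-Hochberg over all genes). CPM and comparisons without triptolide used TMM. Triptolide comparisons used DESeq2 size factors over 36 genes stable by the rule of the study, read as both times where it says 3 or 5 h (over 0.2 CPM at the start, and at 3 and 5 h of triptolide at least 1.1 times the starting CPM, with a start above 10% of the later CPM). Percentages left are per replicate number. The model was tested on simulated data. Alternatives were DESeq2 1.42.0, other scalings, no filter, a replicate block, 5 h alone, other initial levels and leaving out each replicate. All 10 members were named, with the 2 genes most alike by Pearson r of 32 group means (mean of log2 CPM with 0.5 added), and from each list the 3 largest called changes in MAPKi at 0 h. Some genes that this rule names are not reported here. Members and lists were chosen with earlier results of these data known. Coordinates and codons came from GENCODE release 44 (GRCh38) and promoters from RefSeq, which had windows for 8 members. No 2 libraries of a group agreed within sampling noise (chi-square per degree of freedom 3.14 to 17.6 over 96 pairs).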

Additional observations from a re-analysis of the deposited data

Results flagged for a closer look

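The results below were singled out because an effect differed between 2 groups by a test of the difference itself (edgeR adjusted p under 0.05). The effect of cycloheximide at 3 and 5 h was smaller in MAPKi than in DMSO cells, on the log2 scale, for SLC3A2 (−0.65) and SLC7A5 (−0.50). The effect of cycloheximide under triptolide minus its effect without triptolide was above 0 in DMSO cells for SLC38A2 (0.89), SLC7A1 (0.61) and SLC7A11 (0.52) and below 0 for SLC3A2 (−0.74), SLC7A5 (−0.52) and SLC1A4 (−0.40). In MAPKi cells it was above 0 for SLC38A2 (0.75), SLC7A1 (0.73) and SLC7A11 (0.63) and below 0 for SLC3A2 (−0.30) and SLC1A4 (−0.39). The comparison of the cycloheximide effects with and without triptolide was added after the data had been seen. With stable-gene scaling, the MAPKi values of SLC3A2 and SLC1A4 and the DMSO value of SLC1A4 were not called. Single outlying libraries were not tested for in these groups of 3.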

How the results depend on the processing

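No called MAPKi or cycloheximide value changed direction under DESeq2, DESeq2 size factors or no filter on low counts, while 3 uncalled values near 0 changed sign with the size factors and 1 without the filter. The triptolide results depended on the scaling. Under TMM, 2 members were called against the initial level in DMSO and 2 in MAPKi cells, 1 up and 1 down in each, and under total counts 2 and 3. For the alternative settings of this section, the share of all tested genes called is not given. The counts of members therefore show only which of their calls held. The signs that turned under TMM were, in DMSO cells, those of SLC7A11 (0.12), SLC7A5 (0.055), SLC1A5 (0.37), SLC7A1 (0.00015), SLC1A4 (0.090) and SLC38A1 (0.13), and in MAPKi cells those of SLC7A11 (0.20), SLC7A5 (0.18), SLC3A2 (0.071), SLC1A5 (0.20), SLC1A4 (0.37) and SLC38A1 (0.14). For TCHX against T in MAPKi cells, SLC7A5 (−0.24) and SLC1A5 (−0.26) turned. SLC1A4 turned to 0.085 under total counts in MAPKi cells against the initial level. TMM sets the median change of all genes near 0 by construction, while the stable genes leave it at −0.47 and −0.59. Because the stable genes were picked for a higher CPM in these same T libraries, their scaling also lowers other genes under triptolide by construction. With TCHX against the initial level, TMM and total counts each left 1 member called in DMSO cells and 1 in MAPKi cells, and the looser stable-gene rule left 2 in MAPKi cells. With the inhibitor arm at 0 h as the initial level, 2 members were called for TCHX in MAPKi cells, and 1 (SLC1A5) for the interaction of MAPKi with triptolide. With stable-gene scaling, 3 members were called for cycloheximide with against without triptolide in MAPKi cells.

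Leaving out each replicate in turn gave 1 to 2 members called for the interaction of MAPKi with cycloheximide, 1 to 3 and 1 to 2 for TCHX against the initial level in DMSO and MAPKi cells, and 2 to 4 for cycloheximide with against without triptolide in MAPKi cells. SLC7A5 lost the interaction without replicate 2. In those and the other settings together, 87 member values lost their call, 32 gained one, 15 that were called in either fit turned in sign and 1766 stayed on their side of the threshold, among them 122 uncalled values whose sign changed. Same-numbered MAPKi and DMSO libraries of an arm and time showed little pairing. Their deviations from group means correlated at −0.106 to 0.245 (median 0.03), 37 of 48 pairs at or under 0.1. The median for different numbers was −0.01. Whether replicate numbers pair libraries between arms or times was not checked. With a replicate block, TCHX against the initial level in DMSO cells had 5 members called in place of 3, 5 member values gained a call (SLC38A2 for the interaction of MAPKi with cycloheximide, adjusted p = 0.0444) and none was lost. Scaling to genes stable under both T and TCHX was not run, because only 1 gene met the rule. SLC1A3 (median 13 counts) and SLC7A2 (46.5) limit what can be said of them. The cause of the other changes was not tested.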
